A study of Mus musculus with 34 samples.

Results

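The genes described here are 34 members of the integrated stress response branch that runs through the transcription factor ATF4, together with enzymes and transporters of amino acid and folate metabolism. They were taken by name from a list. By role they fall into 8 regulators and stress outputs, 8 serine and folate-cycle enzymes, 9 other amino acid enzymes and 9 amino acid transporters. The deposited table holds 48526 genes, of which 18292 passed the filter on low counts. Of the members, 33 passed it and Cth, which encodes cystathionine gamma-lyase, did not.

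RNA was sequenced from mouse pan T cells purified from spleen by negative selection, in 34 libraries of 13 groups from C57BL/6 mice aged 6–12 weeks. The tested genotypes are CD28_KO (2 libraries per day), DKI, CD28_AYAA, CD28_Y170F and Ars2_KO (3 libraries per day each), and the WT groups have 2 libraries each. CD28 is the main co-stimulatory receptor of T cells; AYAA changes the proline motif of its tail and Y170F the tyrosine motif. The labels do not say which changes the DKI allele carries, and ARS2, encoded by Srrt, is a partner of the nuclear cap-binding complex. All cells except those of WT_D0, which were unstimulated, were stimulated with antibodies to CD3 and CD28 and with interleukin-2. They were collected after 24 h (day 1, D1) or 72 h (day 3, D3), in medium that held 2 mM L-glutamine and 50 µM beta-mercaptoethanol. The series asks how CD28 signalling and ARS2 shape RNA and metabolism in activated T cells. Each library is described as a biological replicate, and every mutant group of a day was set against the same 2 WT libraries of that day.

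Cells short of amino acids or under endoplasmic reticulum stress phosphorylate the initiation factor eIF2, which lowers general translation and raises translation of the Atf4 mRNA. ATF4 then binds C/EBP-ATF composite elements and raises transcription of amino acid transporters, of synthesis enzymes such as asparagine synthetase, and of feedback genes such as Trib3. Proliferating T cells draw on the same genes, because serine made by the PHGDH, PSAT1 and PSPH pathway or imported from outside feeds folate-bound carbon units into nucleotide synthesis through the SHMT and MTHFD enzymes.

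The C/EBP-ATF element was looked for as the letters TGATGNAA on both strands, in windows of 300 bases (250 before and 50 after the gene start) from RefSeq's GRCm38.p6 promoters. Windows were held for 30 of the 34 members, and Cth, Slc7a5, Slc1a5 and Slc38a1 had none. The letters occurred in 7 of the 30 (23.3%), against 1219 of the 27025 genes with a window (4.51%). These 7 stretches of 30 bases are shown because they are the members' matches to the element that ATF4 is known for. They are printed 5′ to 3′ on the strand of the gene, with the match in capitals, and a match describes letters only. Asns (chr6:7693214-7693243, minus strand) has the match starting 23 bases before its start, Chac1 (chr2:119351038-119351067, plus) 193 bases before, Got1 (chr19:43524689-43524718, minus) 102 before and Nupr1 (chr7:126625562-126625591, minus) 110 before. Pycr1 (chr11:120643833-120643862, minus) has it 103 before, Slc1a4 (chr11:20332699-20332728, minus) 4 before and Trib3 (chr2:152344028-152344057, minus) 14 bases after the start.
Asns: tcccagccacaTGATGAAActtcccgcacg
Chac1: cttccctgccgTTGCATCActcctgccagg
Got1: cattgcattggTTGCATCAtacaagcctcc
Nupr1: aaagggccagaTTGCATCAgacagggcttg
Pycr1: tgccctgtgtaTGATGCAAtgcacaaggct
Slc1a4: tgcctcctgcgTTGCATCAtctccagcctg
Trib3: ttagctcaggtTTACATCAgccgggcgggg

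Libraries held 8.3–47.8 M counts (M, mega), and 8 of them held under 12 M, namely the 6 DKI libraries and WT number 4 at both days. At 26.4 M (day 1) and 25.2 M (day 3), WT number 1 was deeper, so the DKI libraries share their depth with WT number 4 only. Read from Xist and Y-linked genes, the unstimulated WT libraries were female, the stimulated WT and all DKI libraries male, and the other groups mixed. Levels are given as CPM, counts per M counts of the library. Summed B cell markers reached 12.2–138 CPM in stimulated libraries and 980–1100 CPM in WT_D0, and those of T cells 2380–3660 CPM in stimulated libraries and 1990–2170 CPM in WT_D0. Marker sums were scaled to library totals, without the TMM factors used for single genes. WT_D0 had factors of 0.83–0.86, which would raise its sums. Srrt fell in the Ars2_KO libraries, to 44.0 CPM at day 1 (33.5–64.8) against 131 and 244 CPM in WT_D1 (log2 fold change −2.09, SE 0.23, adjusted p = 1.9e-05), and to 120.0 CPM at day 3 (105–146) against 145 and 245 CPM in WT_D3 (−0.71, SE 0.23, adjusted p = 0.042). Counts of the Cd28 gene did not check the CD28_KO label at day 1, with 479 CPM against 399 CPM in WT_D1 (0.26, adjusted p = 0.24). At day 3 they were 213 CPM against 531 CPM in WT_D3 (−1.32, adjusted p = 1.6e-05), but Cd28 was also lower in DKI_D3 (−0.91), CD28_AYAA_D3 (−0.78) and Ars2_KO_D3 (−0.74). These libraries are therefore named as labelled CD28_KO.

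In unstimulated WT cells the members spanned a wide range of levels. Per kilobase of exon, Atf4 stood highest at 54.8 CPM per kb, followed by the glutamine carrier Slc1a5 at 41.2, the serine synthesis enzyme Phgdh at 30.3 and Ppp1r15a, the phosphatase subunit that reverses eIF2 phosphorylation, at 25.0. At the low end were Gpt2 at 0.188, Chac1 at 0.0793 and Cth at 0.0498 CPM per kb. After 1 day of stimulation the order in WT cells was led by Phgdh (69.9 CPM per kb) and the mitochondrial serine hydroxymethyltransferase Shmt2 (61.7), with Atf4 at 55.8 and Slc1a5 at 50.9. At day 3 Phgdh (80.8), Atf4 (61.3) and Shmt2 (44.5) led. The 2 WT libraries of a stimulated day differed for many members, and neighbours in this order did not differ beyond that spread where, as for Shmt2 at 223 and 160 CPM at day 1, the 2 libraries were further apart than the neighbours' means.

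**Figure D1:**
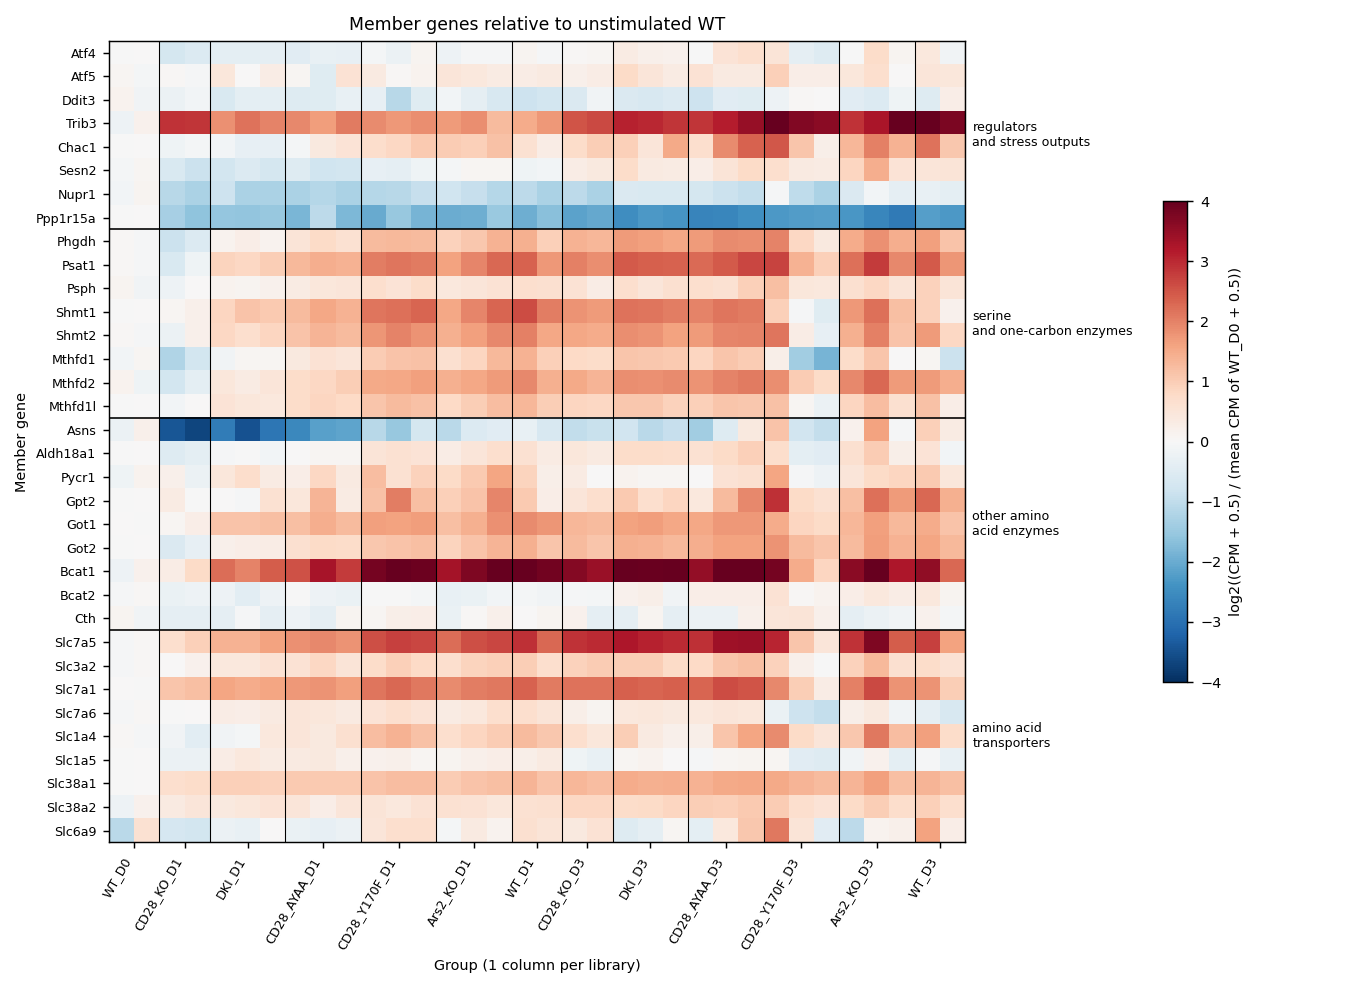
Each column is 1 library and each row 1 of the 34 member genes, grouped by role; colour gives log2 of the library's CPM over the mean of the WT_D0 libraries, with 0.5 added to both and colours capped at 4 in either direction. The serine and folate-cycle block is high in WT_D1 and near the unstimulated colour in the libraries labelled CD28_KO_D1, and CD28_Y170F_D3 numbers 2 and 3 are paler than number 1.

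Stimulation for 1 day raised most enzymes and transporters of the set in WT cells, whereas among the regulators and stress outputs Trib3 rose and 3 others fell. In WT_D1 against WT_D0, 19 members rose and 3 fell among the 22 called at an adjusted p under 0.05, when 51.3% of all genes tested were called (24.2% higher and 27.2% lower). The median log2 fold change was 1.01 over the members and −0.02 over all genes. All 8 serine and folate-cycle enzymes rose (median 1.46), as did 7 of 9 transporters (0.83) and 3 of 8 tested other enzymes (0.98), while 1 of 8 regulators rose and 3 fell (−0.06). In bulk RNA, fewer cells of a type and less RNA per cell cannot be told apart. Markers of other cells were lower in WT_D1 than in WT_D0. They summed to 13.7–30.6 CPM in WT_D1 and 980–1100 CPM in WT_D0 for B cells, and to 8.26–9.32 CPM in WT_D1 and 191–194 CPM in WT_D0 for myeloid cells. NK cell markers summed to 62.3–70.6 CPM in WT_D1 and 153–156 CPM in WT_D0, and erythroid ones to 1.14–25.0 CPM in WT_D1 and 57.3–201 CPM in WT_D0. Their part in these changes was not tested. With sex as a term, 19 members rose and 3 fell in WT_D1 against WT_D0.

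Among the serine and folate-cycle enzymes, the cytosolic serine hydroxymethyltransferase Shmt1 had 98.0 and 65.9 CPM in WT_D1, against 15.5 and 15.9 CPM in WT_D0. It rose by 2.39 on the log2 scale (SE 0.33, adjusted p = 1.7e-06), and the groups did not overlap. Psat1, the aminotransferase of serine synthesis, had 175 and 114 CPM in WT_D1, against 35.0 and 32.6 CPM in WT_D0 (2.10, SE 0.36, adjusted p = 3.4e-05). The mitochondrial folate enzyme Mthfd2 had 108 and 75.7 CPM, against 31.0 and 25.0 CPM at D0 (1.72, SE 0.24, adjusted p = 2.3e-06). Every library of the stimulated pair lay above both unstimulated ones for all 8 enzymes. Of the 33 tested members, 31 did not overlap between these groups in either direction, and the share of all genes without overlap was not counted. The remaining log2 changes of this group were 1.82 for Shmt2, 1.21 for Phgdh (SE 0.29, adjusted p = 0.001), 1.19 for the cytosolic trifunctional enzyme Mthfd1, 1.18 for the mitochondrial formate producer Mthfd1l and 0.66 for the phosphatase Psph.

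Of the other enzymes, the branched-chain aminotransferase Bcat1 had 48.9 and 37.0 CPM in WT_D1, against 1.71 and 2.42 CPM in WT_D0 (log2 fold change 4.39, SE 0.68, adjusted p = 7.5e-06). The aspartate aminotransferases also rose, the cytosolic Got1 by 1.86 (SE 0.19, adjusted p = 1.4e-08) and the mitochondrial Got2 by 1.28. Asparagine synthetase, Asns, did not pass the test at 11.4 and 8.76 CPM in WT_D1, against 11.8 and 16.2 CPM in WT_D0. Among transporters, the leucine carrier Slc7a5 had 181 and 116 CPM in WT_D1, against 22.6 and 23.9 CPM in WT_D0 (2.68, SE 0.51, adjusted p = 0.00011). Its heavy-chain partner Slc3a2 rose by 0.83. The arginine and lysine carrier Slc7a1 rose by 2.25 (SE 0.31, adjusted p = 1.9e-06), the neutral amino acid carrier Slc1a4 by 1.38, the glutamine carriers Slc38a1 by 1.25 (SE 0.11, adjusted p = 7.2e-10) and Slc38a2 by 0.64, and Slc7a6, a cationic and neutral amino acid exchanger, by 0.60. Slc1a5 and the glycine transporter Slc6a9 did not pass.

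The Atf4 mRNA itself stayed at 139 and 125 CPM in WT_D1, against 128 and 130 CPM in WT_D0, and did not pass the test. ATF4 is controlled mostly at translation, which these libraries do not measure. Ppp1r15a had 18.5 and 22.9 CPM in WT_D1, against 72.5 and 74.3 CPM in WT_D0, and fell by 1.83 (SE 0.21, adjusted p = 1.3e-07). Ddit3, which encodes the stress transcription factor CHOP, fell by 0.81, with no overlap between the groups. Nupr1, a small stress-induced nuclear protein, was counted 2 times in the WT_D1 libraries together and 53 times in WT_D0, a depth-scaled ratio of 0.0755 (95% exact counting interval 0.00891–0.286). Trib3, a pseudokinase that ATF4 induces and that restrains it, was the regulator that rose, at 4.54 and 5.53 CPM in WT_D1 against 1.07 and 1.52 CPM in WT_D0 (1.94, SE 0.38, adjusted p = 0.00015).

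At day 3, 6 of 8 serine and folate-cycle enzymes, 4 of 8 tested other enzymes and 6 of 9 transporters were called above the unstimulated level, and the transporter Slc7a6 was called below it. In WT_D3 against WT_D0, 19 members rose and 2 fell, with 50.5% of all genes called (23.5% higher and 27.0% lower) and medians of 0.83 over the members and −0.07 over all genes. Trib3 had 38.7 and 23.9 CPM in WT_D3, against 1.07 and 1.52 CPM in WT_D0 (4.61, SE 0.38, adjusted p = 2.1e-10). Chac1, a glutathione-degrading enzyme, had 2.32 and 0.835 CPM, against 0.122 and 0.138 CPM (3.64, SE 0.86, adjusted p = 0.00095), and the leucine sensor Sesn2 rose by 0.53. Every one of these 3 stress outputs was above the unstimulated libraries in both stimulated ones.

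The metabolic members that rose in WT_D3 over WT_D0 were Psat1 (2.17), Mthfd2 (1.61), Phgdh (1.42), Shmt2 (1.35), Mthfd1l (0.81) and Psph (0.76) among the serine and folate-cycle enzymes, so 6 of 8 passed. Of the other enzymes, Bcat1 (3.37), the alanine aminotransferase Gpt2 (2.38), Got2 (1.46) and Got1 (1.36) rose. Of the transporters, Slc7a5 (2.32), Slc1a4 (1.5), Slc7a1 (1.47), Slc38a1 (1.30), Slc38a2 (0.83) and Slc3a2 (0.66) rose, and Slc7a6 fell by 0.49. Ppp1r15a fell by 2.28 (SE 0.22, adjusted p = 3.4e-09). Leaving out WT_D3 number 1, the higher library for most members, took the members called from 21 down to 13.

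Between the stimulated days the share of members called was near that of all genes. In WT_D3 against WT_D1, 4 members rose and 5 fell, or 27.3% of the 33 tested, with 29.5% of all genes called (15.5% higher and 14.0% lower) and medians of 0.09 over the members and −0.03 over all genes. Shmt1 had 30.0 and 17.7 CPM in WT_D3, against 98.0 and 65.9 CPM in WT_D1 (−1.76, SE 0.33, adjusted p = 0.00019). Mthfd1 had 74.6 and 38.4 CPM, against 183 and 136 CPM (−1.48, SE 0.41, adjusted p = 0.0074). The day 3 libraries lay below both day 1 libraries for each. Slc7a6 fell by 1.09 (SE 0.16, adjusted p = 1.4e-05), Got1 by 0.50 and Slc1a5 by 0.48. The members that rose were Trib3 by 2.67 (SE 0.35, adjusted p = 2.2e-06), Ddit3 by 0.71, Sesn2 by 0.68 and the mitochondrial branched-chain aminotransferase Bcat2 by 0.39. With the replicate number as a block, in a fit of these libraries alone, Ddit3 did not pass (0.66, adjusted p = 0.065). That fit also called Asns (1.18, adjusted p = 0.004), Chac1 (2.12), Gpt2 (1.4), Bcat1 (−1.09), Slc7a1 (−0.82) and Shmt2 (−0.5). In place of 9 members, 3 were called without WT_D1 number 1, 4 without WT_D1 number 4 and 5 without WT_D3 number 4.

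**Figure D2:**
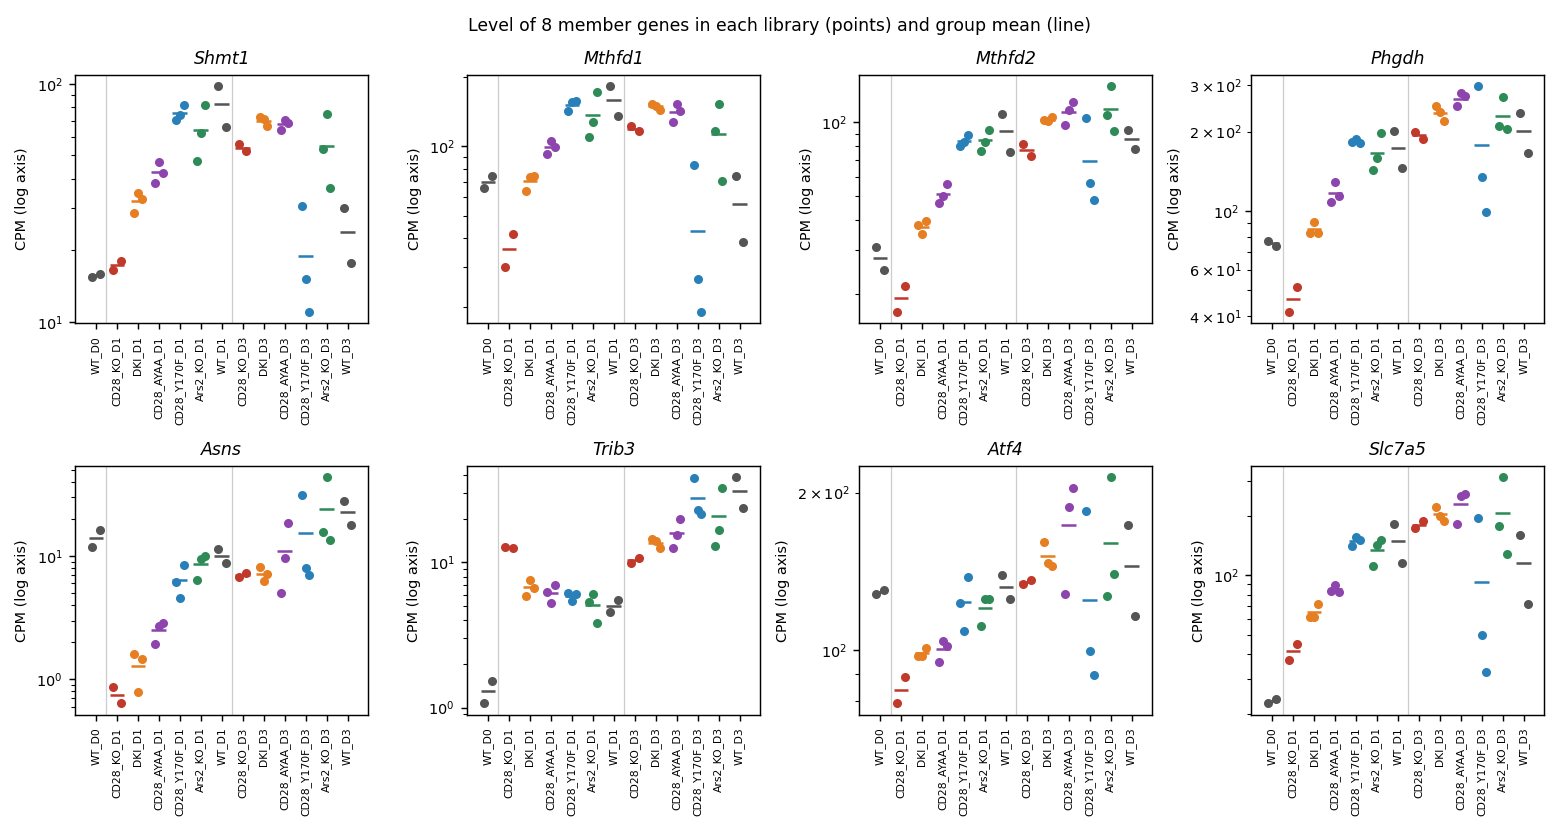
CPM on a log axis in every library for 8 members, with groups along the horizontal axis, 1 point per library and a line at each group's mean. Among the day 1 groups, the means of Asns and Shmt1 are lowest in the libraries labelled CD28_KO_D1. Asns is at 0.863 and 0.637 CPM in these libraries and at 0.785 CPM in DKI_D1 number 2. Trib3 is highest among the day 1 groups in the libraries labelled CD28_KO_D1, at 12.8 and 12.6 CPM.

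At day 1 most members that stimulation raised in WT were lower in the libraries labelled CD28_KO. In the libraries labelled CD28_KO_D1 against WT_D1, 22 members fell and 2 rose, with 43.3% of all genes called (18.6% higher and 24.7% lower) and medians of −0.95 over the members and 0.02 over all genes. All 8 serine and folate-cycle enzymes fell (median −2.03), as did 5 of 8 other enzymes (−1.31) and 7 of 9 transporters (−0.73), while 2 regulators fell and 2 rose (−0.51). The 24 called members did not overlap in any case between the groups, and neither did most others, with 31 of the 33 tested members free of overlap. The share of all genes without overlap was not counted.

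Among the other enzymes, the log2 falls of Asns and Bcat1 lay within 1 SE of each other. Asns lies on chromosome 6 from 7675169 to 7693254 (GRCm38) and its product makes asparagine from aspartate and glutamine. It had 0.863 and 0.637 CPM in the libraries labelled CD28_KO_D1, against 11.4 and 8.76 CPM in WT_D1, or 13.6-fold lower (log2 fold change −3.77, SE 0.77, adjusted p = 0.00028). Both values were also below the 11.8 and 16.2 CPM of unstimulated WT. Bcat1 had 2.65 and 3.87 CPM, against 48.9 and 37.0 CPM in WT_D1, and was 13.1-fold lower (−3.71, SE 0.68, adjusted p = 8.7e-05). Got2 fell by 1.74 (SE 0.17, adjusted p = 3.7e-08), Got1 by 1.68 (SE 0.19, adjusted p = 2.2e-07) and Aldh18a1, which starts proline synthesis from glutamate, by 0.95. The aminotransferases Bcat2 and Gpt2 and the proline enzyme Pycr1 did not pass the test.

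Shmt1 had 16.6 and 18.0 CPM in the libraries labelled CD28_KO_D1, against 98.0 and 65.9 CPM in WT_D1 (−2.25, SE 0.34, adjusted p = 8.3e-06). Its values were close to the 15.5 and 15.9 CPM of unstimulated cells. Psat1 had 22.1 and 30.0 CPM, against 175 and 114 CPM (−2.47, SE 0.37, adjusted p = 9.8e-06), and Phgdh had 41.4 and 51.5 CPM, against 201 and 146 CPM (−1.90, SE 0.30, adjusted p = 1.4e-05). Mthfd2 had 16.8 and 21.4 CPM, against 108 and 75.7 CPM (−2.27, SE 0.25, adjusted p = 1.6e-07). Psat1, Phgdh and Mthfd2 were thus below both unstimulated libraries in both. The other falls in this role were 2.15 for Mthfd1, 1.82 for Shmt2, 1.23 for Mthfd1l and 0.75 for Psph on the log2 scale.

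For the transporters the median was closer to 0. Slc7a5 had 37.5 and 45.1 CPM in the libraries labelled CD28_KO_D1, against 181 and 116 CPM in WT_D1 (−1.85, SE 0.50, adjusted p = 0.004), so it lay above the 22.6 and 23.9 CPM of unstimulated cells. Slc1a4 fell by 1.74, Slc7a1 by 1.08, Slc3a2 by 0.73, Slc7a6 by 0.60, and Slc1a5 and Slc38a1 by 0.54 each. Slc38a2 and Slc6a9 did not pass. Among regulators, Atf4 had 79.1 and 88.7 CPM, against 139 and 125 CPM in WT_D1 (−0.65, SE 0.25, adjusted p = 0.038), and Sesn2 fell by 0.64. Trib3 moved the other way, with 12.8 and 12.6 CPM against 4.54 and 5.53 CPM in WT_D1 (1.36, SE 0.35, adjusted p = 0.0024), and Ddit3 rose by 0.64 (SE 0.24, adjusted p = 0.032). Chac1 was counted 3 times in the 2 libraries labelled CD28_KO_D1 and 16 times in WT_D1 (ratio 0.191, 95% exact counting interval 0.0357–0.669), and Cth was at 0 counts in both. The 11 B cell markers, 0 of which were at 0, summed to 97.6–138 CPM in the libraries labelled CD28_KO_D1 and 13.7–30.6 CPM in WT_D1, and their part in these changes was not tested.

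In the DKI libraries enzymes fell at day 1 and the regulators did not pass the test. In DKI_D1 against WT_D1, 14 members fell and 0 rose, with 26.0% of all genes called (10.3% higher and 15.8% lower) and medians of −0.67 over the members and 0.00 over all genes. The falls took in 7 of 8 serine and folate-cycle enzymes (median −1.10), 4 of 8 other enzymes (−0.69), 3 of 9 transporters (−0.35) and 0 of 8 regulators (0.11). Asns had 1.59, 0.785 and 1.45 CPM in DKI_D1, against 11.4 and 8.76 CPM in WT_D1 (−2.97, SE 0.68, adjusted p = 0.0026). Mthfd2 had 38.2, 35.0 and 39.4 CPM, against 108 and 75.7 CPM (−1.30, SE 0.22, adjusted p = 0.00013), and Shmt1 had 28.7, 34.9 and 32.7 CPM, against 98.0 and 65.9 CPM (−1.36, SE 0.29, adjusted p = 0.0016). No called member overlapped between DKI_D1 and WT_D1, where 28 of the 33 tested members had no overlap. The share of all genes without overlap was not counted. Got2 fell by 1.03 (SE 0.15, adjusted p = 2.6e-05). The other members called were Bcat1 (−1.91), Slc1a4 (−1.29), Slc7a5 (−1.19), Mthfd1 and Psat1 (−1.18 each), Phgdh (−1.03), Mthfd1l (−0.69), Got1 (−0.67), Psph (−0.52) and Slc38a1 (−0.31).

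**Figure D3:**
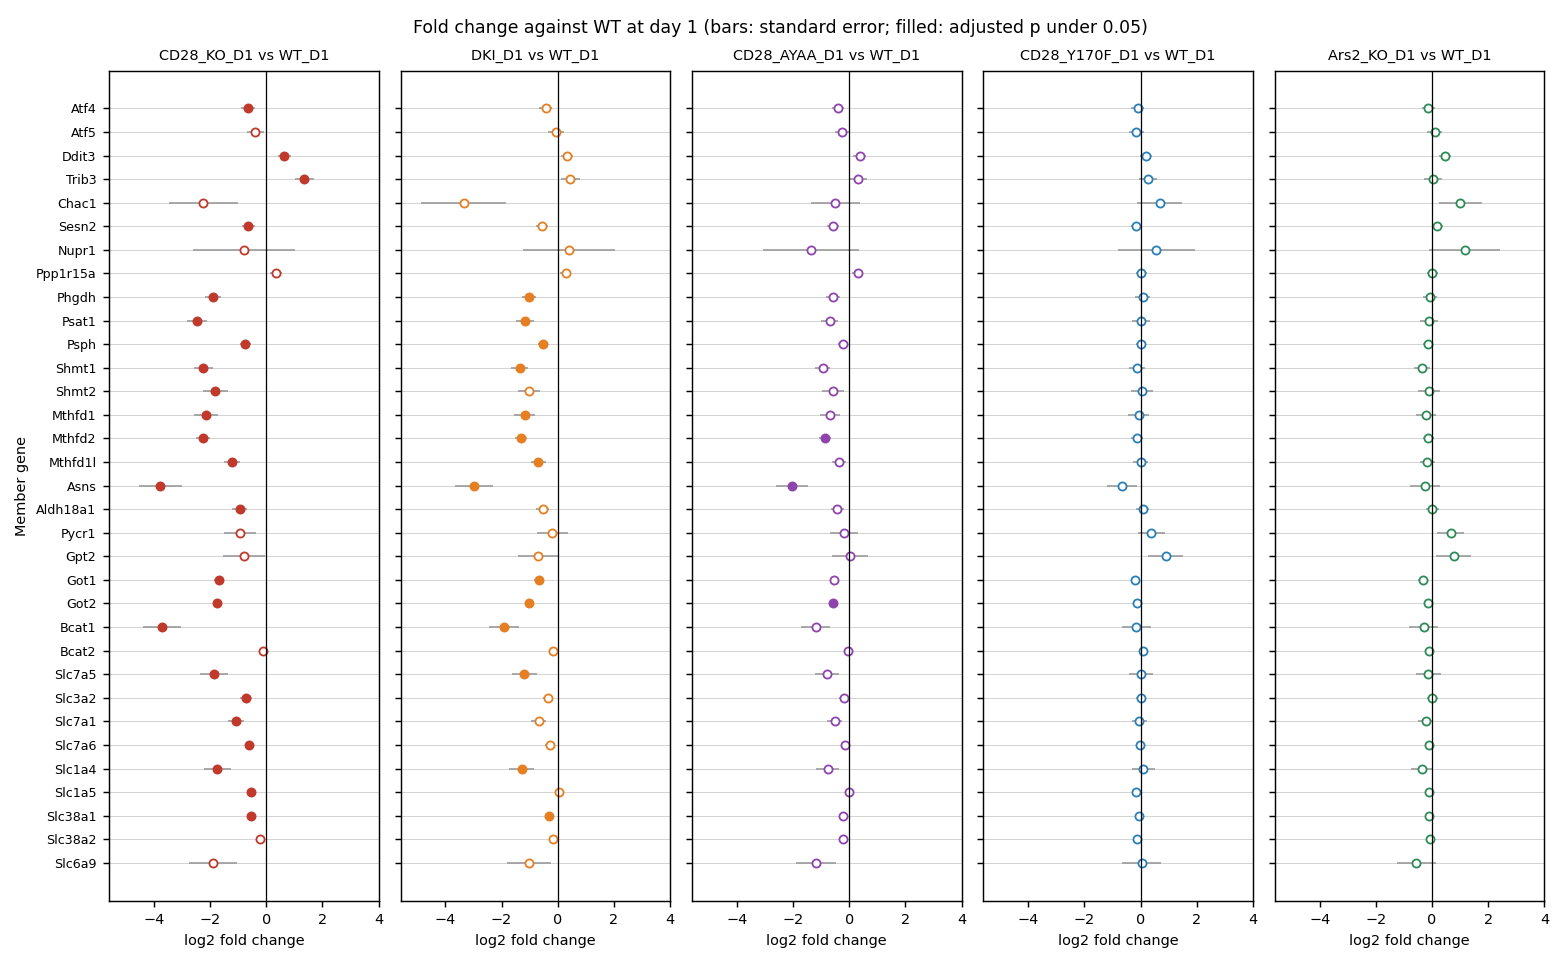
Log2 fold change of each tested member (down the page) against WT_D1, 1 panel per mutant; bars are the standard error and filled points have an adjusted p under 0.05. Called members number 24 in CD28_KO_D1, 14 in DKI_D1, 3 in CD28_AYAA_D1 and 0 in CD28_Y170F_D1 and Ars2_KO_D1.

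In the CD28_AYAA libraries 3 members fell at day 1 and 0 rose against WT_D1, with 3.6% of all genes called (1.61% higher and 1.99% lower). The median was −0.49 over the members and 0.03 over all genes, and 28 of the 33 tested members had a negative log2 fold change. Asns had 1.94, 2.70 and 2.84 CPM in CD28_AYAA_D1, against 11.4 and 8.76 CPM in WT_D1 (−2.02, SE 0.57, adjusted p = 0.046). Mthfd2 had 46.7, 50.2 and 55.9 CPM, against 108 and 75.7 CPM (−0.86, SE 0.21, adjusted p = 0.03), and Got2 fell by 0.56 (SE 0.15, adjusted p = 0.042). Phgdh and Shmt1 did not pass the test, at 108, 129 and 114 CPM against 201 and 146 CPM for Phgdh, and at 38.5, 46.8 and 42.1 CPM against 98.0 and 65.9 CPM for Shmt1. The CD28_AYAA_D1 libraries lay below both WT_D1 libraries for all 8 serine and folate-cycle enzymes, of which 1 was called. Of the 33 tested members, 23 did not overlap between these groups in either direction. The share of all genes without overlap was not counted.

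No member passed the test in CD28_Y170F_D1 or Ars2_KO_D1 against WT_D1. In CD28_Y170F_D1, 0.0547% of all genes were called (0.0164% higher and 0.0383% lower), the members' median was 0.00, and 0 members had an unadjusted p under 0.05 or were called by DESeq2 or limma-voom. In Ars2_KO_D1, 0.399% of all genes were called (0.23% higher and 0.169% lower), the median was −0.12 over the members and 0.01 over all genes, and the same 3 counts were 0. Asns had 6.15, 4.61 and 8.47 CPM in CD28_Y170F_D1 and 6.44, 9.43 and 10.0 CPM in Ars2_KO_D1, against 11.4 and 8.76 CPM in WT_D1. Shmt1 had 70.6, 73.9 and 81.1 CPM in CD28_Y170F_D1 and 47.2, 62.4 and 81.7 CPM in Ars2_KO_D1, against 98.0 and 65.9 CPM in WT_D1. In both cases the Shmt1 values overlapped those of WT.

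The size of the day 1 differences depended on the WT_D1 library used, and number 1 lay above number 4 for most enzymes. Counts of called members also depend on how many libraries a group keeps. With number 1 as the only WT library, the members' median log2 fold change was −1.24 in CD28_KO_D1, −0.75 in DKI_D1 and −0.59 in CD28_AYAA_D1. With number 4 alone it was −0.75 in CD28_KO_D1, −0.47 in DKI_D1 and −0.27 in CD28_AYAA_D1. Against number 4 alone, which matches the DKI libraries in depth, Mthfd2 changed by −0.97 and Got2 by −0.81 in DKI_D1. A term for the libraries under 12 M counts left 4 members called in DKI_D1, namely Mthfd2 (−1.08), Shmt1 (−1.0), Asns (−2.68) and Got2 (−0.86). Without DKI_D1 number 1, 9 members fell. In CD28_AYAA_D1, 0 members were called without its number 1 or number 2 and 1 without its number 3.

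**Figure D4:**
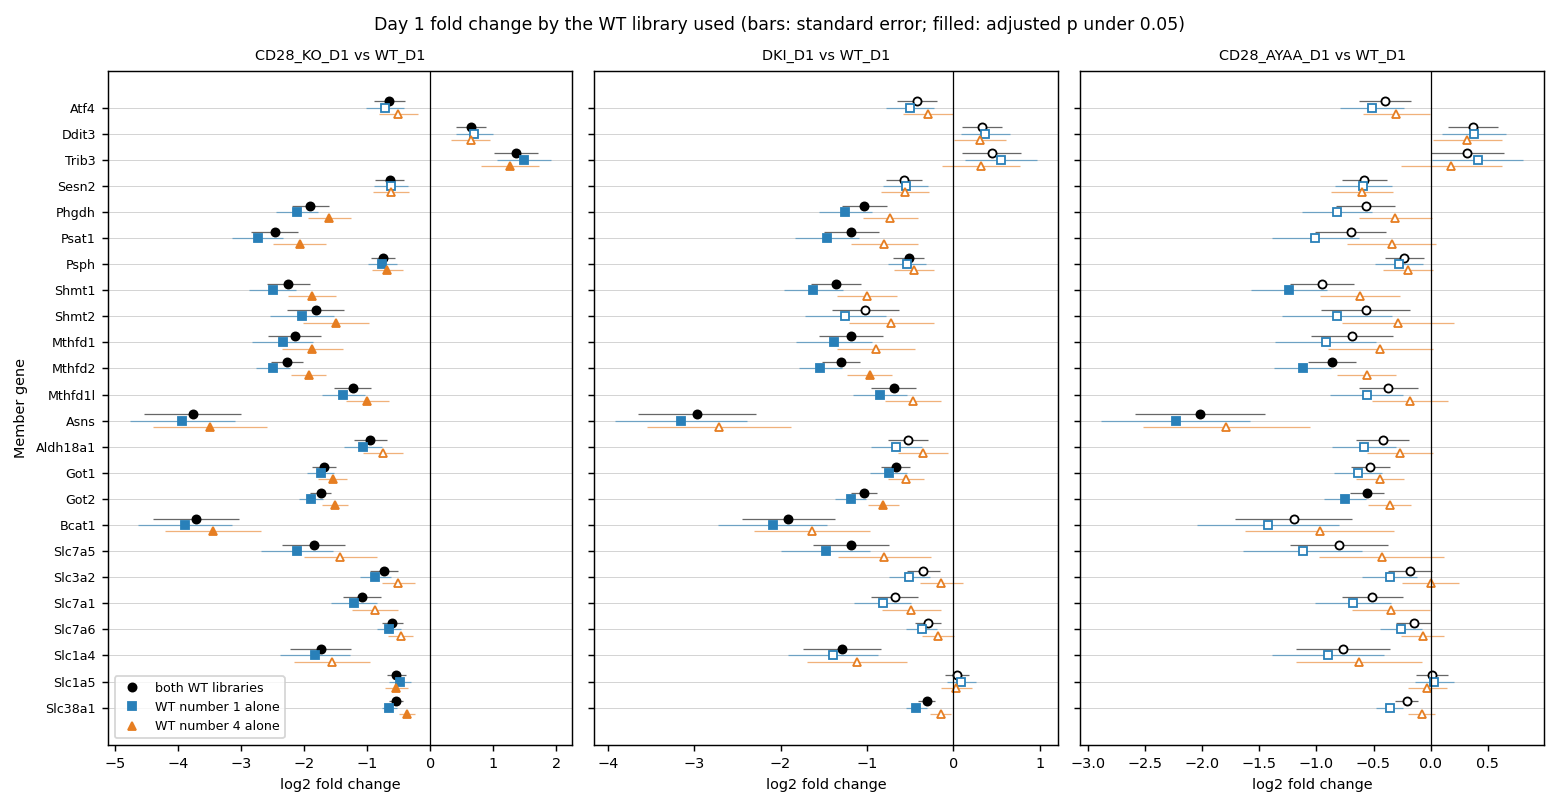
Log2 fold change at day 1 of the 24 members called in CD28_KO_D1, with both WT libraries (circles), WT number 1 alone (squares) or WT number 4 alone (triangles), 1 panel per mutant; bars are the standard error and filled points have an adjusted p under 0.05. Falls are larger against number 1 than against number 4 for most enzymes. The median over the tested members in CD28_KO_D1 is −1.24 against number 1 and −0.75 against number 4.

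The alleles were also compared with each other. In the main fit, which had no replicate block, 1 member fell and 0 rose in CD28_AYAA_D1 against CD28_Y170F_D1. There 4.32% of all genes were called (2.16% higher and 2.16% lower), with medians of −0.47 over the members and 0.02 over all genes. The member was Mthfd2, with 46.7, 50.2 and 55.9 CPM in CD28_AYAA_D1 against 80.2, 83.2 and 89.1 CPM in CD28_Y170F_D1 (−0.72, SE 0.19, adjusted p = 0.035). Same-numbered libraries of these groups deviated together (correlations of 0.28–0.39), and with the replicate number as a block, in a fit of these 6 libraries alone, 24 members fell and 2 rose. In that fit 38.3% of all genes were called (17.8% higher and 20.5% lower). Without the block, the same 6 libraries alone gave 18 members called and 22.8% of all genes. B cell markers summed to 14.9–41.8 CPM in CD28_AYAA_D1 and 14.7–128 CPM in CD28_Y170F_D1, and their part was not tested. In the fit with the block Asns passed at −1.35 (adjusted p = 0.00048), with 1.94, 2.70 and 2.84 CPM in CD28_AYAA_D1 against 6.15, 4.61 and 8.47 CPM in CD28_Y170F_D1. Under the block Shmt1 fell by 0.83 (adjusted p = 1.1e-05), Slc7a5 by 0.81 (adjusted p = 3.4e-06), Bcat1 by 1.08, Phgdh by 0.66 and Atf4 by 0.30 (adjusted p = 0.0067). The members that rose under the block were Ppp1r15a (0.23) and Slc1a5 (0.16). Without the block, leaving out any 1 of the 6 libraries left 0 members called.

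In DKI_D1 against the libraries labelled CD28_KO_D1, 6 members rose and 0 fell, with 9.04% of all genes called (6.30% higher and 2.74% lower) and medians of 0.45 over the members and 0.01 over all genes. Got1 had 40.5, 40.5 and 41.8 CPM in DKI_D1, against 18.9 and 21.8 CPM in CD28_KO_D1 (1.01, SE 0.18, adjusted p = 0.0008). Psat1 had 63.7, 60.9 and 67.1 CPM, against 22.1 and 30.0 CPM (1.29, SE 0.34, adjusted p = 0.019). Mthfd2 rose by 0.97, Phgdh by 0.88, Got2 by 0.71 and Slc1a5 by 0.58. In all 6 the groups did not overlap, as in 23 of the 33 tested members, and the share of all genes without overlap was not counted. Without the library labelled CD28_KO_D1 number 1, 0 members were called, and without number 2, 3 were. The B cell markers summed to 14.6–17.7 CPM in DKI_D1 and 97.6–138 CPM in the libraries labelled CD28_KO_D1, and their part in these changes was not tested.

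At day 3 between 0 and 6 members differed from WT in each mutant group, in every group a smaller share than of all genes. Of the tested members, 15.2% were called in CD28_KO_D3, 18.2% in DKI_D3, 15.2% in CD28_AYAA_D3 and 6.06% in Ars2_KO_D3. The members that fell were Asns, Trib3 and Nupr1. The WT_D3 libraries number 1 and 4 again differed, and the counts below rest on both. In the libraries labelled CD28_KO_D3 against WT_D3, 2 members rose and 3 fell, with 20.0% of all genes called (8.59% higher and 11.5% lower) and medians of −0.10 over the members and 0.01 over all genes. In DKI_D3, 4 rose and 2 fell (all genes 23.4%, with 10.3% higher and 13.1% lower; medians 0.09 and −0.02). In CD28_AYAA_D3, 4 rose and 1 fell (all genes 21.7%, with 10.4% higher and 11.3% lower; medians 0.19 and −0.01). In Ars2_KO_D3, 2 rose and 0 fell (all genes 12.9%, with 6.59% higher and 6.27% lower; medians 0.12 and 0.02).

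Shmt1 rose in each of these 4 groups against WT_D3. It had 55.6 and 52.3 CPM in the libraries labelled CD28_KO_D3, 72.6, 70.8 and 66.7 CPM in DKI_D3, 63.9, 70.7 and 68.6 CPM in CD28_AYAA_D3 and 53.2, 74.4 and 36.6 CPM in Ars2_KO_D3, against 30.0 and 17.7 CPM in WT_D3. Every mutant library of the 4 groups was above both WT_D3 libraries, which had themselves dropped below WT_D1. The log2 fold changes were 1.15 (adjusted p = 0.013) in CD28_KO_D3, 1.53 (SE 0.31, adjusted p = 0.00078) in DKI_D3, 1.48 (adjusted p = 0.0012) in CD28_AYAA_D3 and 1.17 (SE 0.30, adjusted p = 0.012) in Ars2_KO_D3. The exchanger Slc7a6 rose alongside, by 0.65, 0.92, 0.94 and 0.68 in the same order of groups. Mthfd1 rose in DKI_D3 (1.39) and CD28_AYAA_D3 (1.30), and Slc7a1 rose in DKI_D3 (0.92) and CD28_AYAA_D3 (1.04). These 4 comparisons share their WT_D3 libraries.

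Trib3 fell in 3 groups. It had 9.85 and 10.8 CPM in the libraries labelled CD28_KO_D3 (−1.61, SE 0.32, adjusted p = 0.00084), 14.5, 14.1 and 12.5 CPM in DKI_D3 (−1.20, adjusted p = 0.0034) and 12.6, 15.4 and 19.8 CPM in CD28_AYAA_D3 (−0.98, adjusted p = 0.013), against 38.7 and 23.9 CPM in WT_D3. None of these libraries reached the lower WT_D3 value. Asns had 6.79 and 7.29 CPM in the libraries labelled CD28_KO_D3 (−1.71, SE 0.58, adjusted p = 0.039) and 8.11, 6.31 and 7.12 CPM in DKI_D3 (−1.68, adjusted p = 0.024), against 27.8 and 17.8 CPM in WT_D3. In CD28_AYAA_D3 it had 4.98, 9.60 and 18.6 CPM and did not pass the test. Nupr1 was counted 2 times in the libraries labelled CD28_KO_D3 and 15 times in WT_D3 (ratio 0.0837, 95% exact counting interval 0.00929–0.36).

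**Figure D5:**
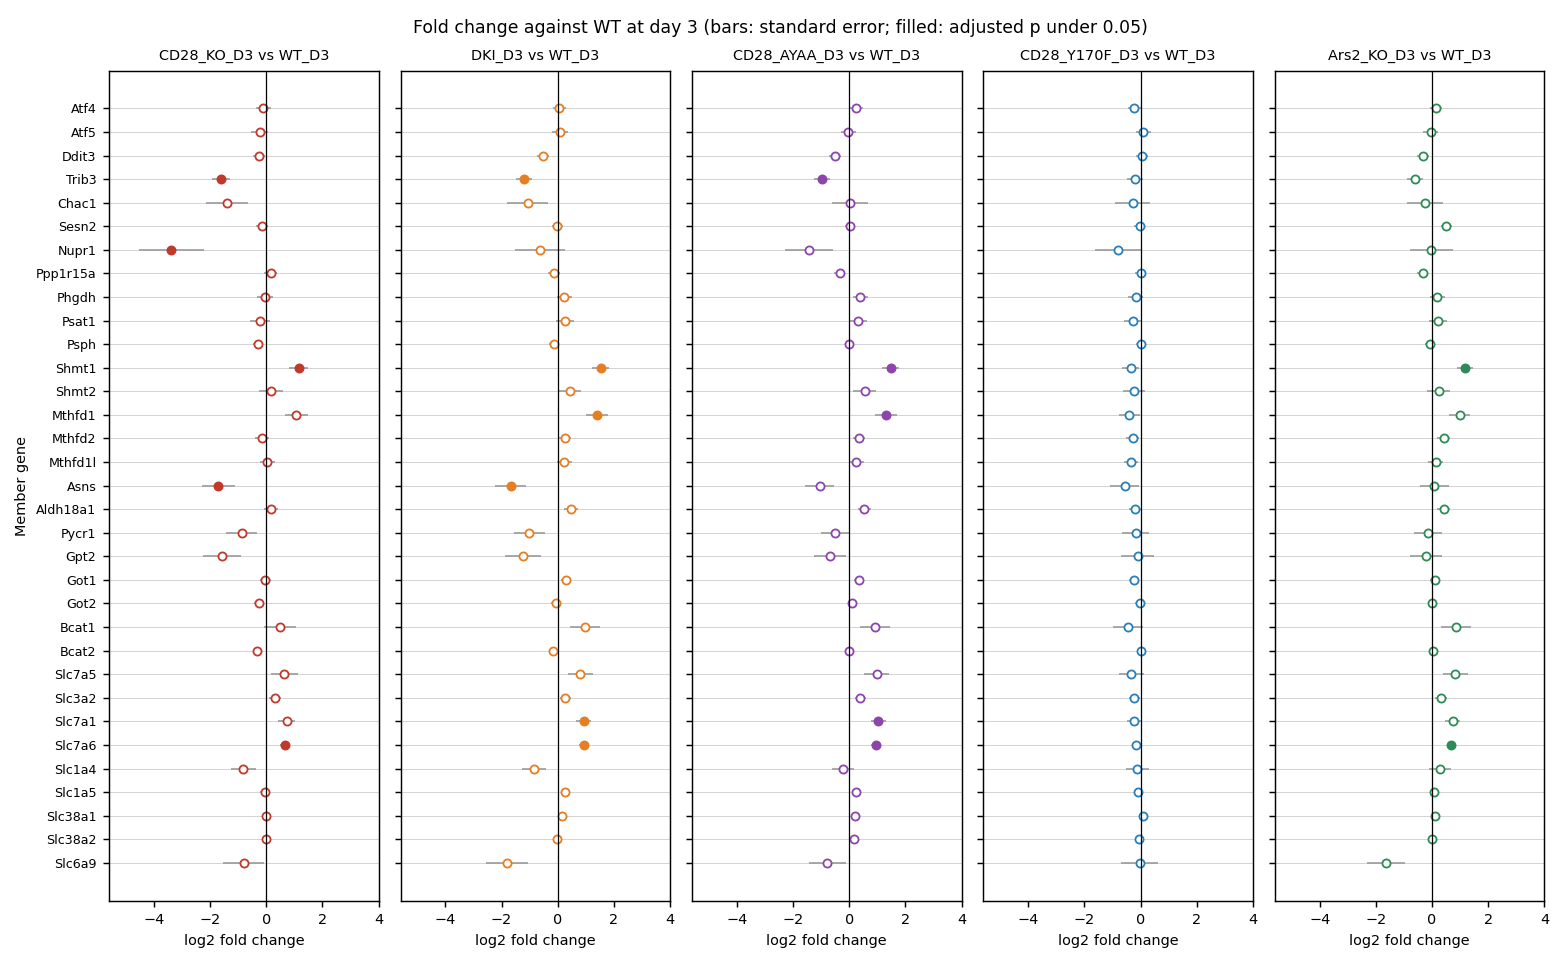
Log2 fold change of each tested member against WT_D3, 1 panel per mutant; bars are the standard error and filled points have an adjusted p under 0.05. Shmt1 and Slc7a6 lie to the right of 0 and are filled in CD28_KO_D3, DKI_D3, CD28_AYAA_D3 and Ars2_KO_D3, and CD28_Y170F_D3 has 0 filled points.

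In CD28_Y170F_D3, 0 members were called and 0 had an unadjusted p under 0.05, with 0.0273% of all genes called (0.0109% higher and 0.0164% lower) and medians of −0.19 over the members and 0.00 over all genes. DESeq2 and limma-voom also called 0. The group was uneven, with Shmt2 at 239, 67.0 and 43.5 CPM and Slc7a5 at 194, 50.2 and 32.4 CPM in CD28_Y170F_D3, against 179 and 97.2 CPM and 159 and 72.1 CPM in WT_D3. Number 1 was the high library of the 3 for most enzymes. Without it, 14 members were called and all 14 were lower than WT_D3, with 6.34% of all genes called (1.73% higher and 4.61% lower). In Ars2_KO_D3 number 2 stood high, with Asns at 15.7, 43.8 and 13.4 CPM and Slc7a5 at 177, 313 and 128 CPM. Leaving out 1 Ars2_KO_D3 or WT_D3 library at a time gave 0–6 members called in place of 2, with 0 without WT_D3 number 4, 1 without Ars2_KO_D3 number 2 and 6 without number 3.

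The WT library also mattered for the other genotypes. Against WT_D3 number 1 alone, the members' median log2 fold change was −0.26 in CD28_KO_D3, −0.05 in DKI_D3, 0.03 in CD28_AYAA_D3 and −0.09 in Ars2_KO_D3. Against that library Trib3 changed by −1.91 in CD28_KO_D3 and by −1.28 in CD28_AYAA_D3, and Slc7a6 by 0.82 in CD28_AYAA_D3. In the libraries labelled CD28_KO_D3, leaving out number 1 left 1 member called and leaving out number 2 left 2. Against WT_D3 number 4 alone, the members' median was 0.14 in CD28_KO_D3, 0.23 in DKI_D3, 0.4 in CD28_AYAA_D3 and 0.43 in Ars2_KO_D3.

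The CD28 alleles differed from each other at day 3 in 15 members. In CD28_AYAA_D3 against CD28_Y170F_D3, 13 members rose and 2 fell, with 36.8% of all genes called (17.6% higher and 19.2% lower) and medians of 0.31 over the members and −0.04 over all genes. Shmt1 had 63.9, 70.7 and 68.6 CPM in CD28_AYAA_D3, against 30.6, 15.2 and 11.0 CPM in CD28_Y170F_D3 (1.84, SE 0.27, adjusted p = 1.1e-05). Mthfd1 had 127, 152 and 143 CPM, against 83.1, 26.6 and 19.1 CPM (1.71, SE 0.34, adjusted p = 0.0003), and Slc7a6 had 61.7, 64.8 and 62.5 CPM, against 38.0, 25.5 and 23.6 CPM (1.12, SE 0.13, adjusted p = 1.1e-06). These 3 members, with Slc7a1 (1.27, adjusted p = 0.00027), Got1 (0.60), Ddit3 (−0.55) and Trib3 (−0.80), did not overlap between the groups. The other 8 called members did, namely Bcat1 (1.37), Slc7a5 (1.31), Aldh18a1 (0.74), Mthfd2 (0.66), Slc3a2 (0.61), Mthfd1l and Phgdh (0.59 each) and Slc1a5 (0.32). Leaving out a library of either group gave 6–21 members called, with 6 without CD28_Y170F_D3 number 2 or number 3. DKI_D3 against CD28_KO_D3 gave 0 called members (all genes 0.454%, with 0.219% higher and 0.235% lower), 2 with an unadjusted p under 0.05, 0 by DESeq2 and limma-voom, and a median of 0.20.

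The change of the mutant effect between the days was tested directly, as the day 3 difference from WT minus the day 1 difference. In the libraries labelled CD28_KO it was positive in 16 and negative in 2 of the 18 called members, with 35.3% of all genes called (20.5% positive and 14.7% negative) and a median of 1.05 over the members. Shmt1 changed by 3.40 (SE 0.47, adjusted p = 7.5e-06), Mthfd1 by 3.22, Mthfd2 by 2.12, Got1 by 1.64 and Got2 by 1.47, while Trib3 changed by −2.97 (SE 0.47, adjusted p = 3.3e-05). In DKI, 13 were positive and 2 negative (all genes 32.4%, with 17.7% positive and 14.7% negative; members' median 0.62), led by Shmt1 (2.89, SE 0.43, adjusted p = 2.4e-05), Mthfd1 (2.56), Slc7a1 (1.59), Mthfd2 (1.56), Slc7a6 (1.21) and Got2 (0.95). In CD28_AYAA, 11 were positive and 2 negative (all genes 24.4%, with 12.3% positive and 12.1% negative; median 0.61), led by Shmt1 (2.43, SE 0.42, adjusted p = 0.00023), Mthfd1 (1.99), Slc7a1 (1.56), Mthfd2 (1.22), Slc7a6 (1.10) and Got1 (0.87). In Ars2_KO, Shmt1 (1.54, SE 0.41, adjusted p = 0.037) and Slc7a6 (0.80, SE 0.21, adjusted p = 0.033) were positive and 0 members negative (all genes 3.68%, with 1.91% positive and 1.77% negative; median 0.28). In CD28_Y170F 0 members were called (all genes 0.0%), with 0 at an unadjusted p under 0.05 and 0 by DESeq2 or limma-voom. All of these differences contain the change in WT between the days. It was a drop for Shmt1, Mthfd1, Slc7a6 and Got1 and a rise of 2.67 for Trib3. Leaving out 1 library lowered the counts of DKI and CD28_AYAA in some cases and raised them in others. The lowest counts of both came where only 1 WT library was left on a day. In CD28_AYAA, 8 were called without its day 1 number 1 and 7 without its day 1 number 3 or its day 3 number 2. In Ars2_KO, 0 members were called without WT_D1 number 1, WT_D3 number 4 or either number 1 or number 2 of its own at day 1 or day 3.

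Set against unstimulated WT, the libraries labelled CD28_KO_D1 were the only day 1 group in which more members fell than rose. There 4 members rose and 7 fell, or 33.3% of the 33 tested. Of all genes, 52.2% were called (21.1% higher and 31.1% lower), with medians of −0.16 over the members and −0.12 over all genes. In every day 1 group more of all genes were called lower than higher. Of the 8 serine and folate-cycle enzymes, 0 rose and 1 fell. Without the library labelled CD28_KO_D1 number 2, 3 members rose and 3 fell, and without WT_D0 number 1, 3 rose and 4 fell. In DKI_D1, 11 rose and 4 fell (all genes 49.1%, with 21.7% higher and 27.5% lower; members' median 0.31), and without either WT_D0 library 9 were called. In CD28_AYAA_D1, 17 rose and 4 fell (50.0%, with 23.8% and 26.2%; median 0.63). In CD28_Y170F_D1, 23 rose and 3 fell (54.7%, with 25.8% and 28.9%; median 1.16), and in Ars2_KO_D1, 22 rose and 2 fell (53.6%, with 25.7% and 27.9%; median 1.01). At day 3 the members that rose outnumbered those that fell in all 5 mutants. There were 17 risen and 2 fallen in CD28_KO_D3 (all genes 52.1%, with 24.1% higher and 28.0% lower; median 0.79) and 21 and 2 in DKI_D3 (58.1%, with 26.3% and 31.7%; median 0.92). The counts were 23 and 3 in CD28_AYAA_D3 (60.2%, with 27.8% and 32.3%; median 1.04), 17 and 2 in CD28_Y170F_D3 (53.8%, with 25.3% and 28.5%; median 0.78) and 22 and 1 in Ars2_KO_D3 (56.8%, with 27.3% and 29.6%; median 1.03).

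Related pathway lists were read in the same fits. Of all genes, 24.2% were called higher and 27.2% lower in WT_D1 against WT_D0. The shares were 18.6% and 24.7% in CD28_KO_D1 and 10.3% and 15.8% in DKI_D1, each against WT_D1. In either direction, 3.6% of all genes were called in CD28_AYAA_D1, 0.0547% in CD28_Y170F_D1 and 0.399% in Ars2_KO_D1. The cytosolic aminoacyl-tRNA synthetases, which charge tRNAs and include known ATF4 targets, rose in 16 of 20 and fell in 0 in WT_D1 against WT_D0 (median 0.93), with Wars at 2.10, Iars at 1.72 and Kars at 1.22. In CD28_KO_D1 against WT_D1 all 20 fell (median −1.28), among them Wars at 63.6 ± 4.04 CPM against 207 ± 53.6 CPM in WT_D1 (SD, n = 2 each; −1.70) and Kars at 65.2 ± 7.86 against 203 ± 31.2 CPM (−1.64). In DKI_D1 16 of 20 fell (median −0.71), and in CD28_AYAA_D1, CD28_Y170F_D1 and Ars2_KO_D1 0 changed. Of 27 other genes of the folate and methionine cycles, 14 rose and 4 fell in WT_D1 against WT_D0, including thymidylate synthase Tyms (2.10). In CD28_KO_D1 against WT_D1, 3 rose and 13 fell, including Tyms (−2.71) and the adenosylhomocysteinase Ahcy (−1.62), and in DKI_D1 1 rose and 11 fell.

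The other ATF4 targets were called at near the rate of all genes in CD28_KO_D1 against WT_D1. Of 18 tested, 4 rose and 3 fell there, with 43.3% of all genes called (18.6% higher and 24.7% lower). Sesn1 rose by 1.80 and Gadd45a by 2.17, and Atf3, a stress-induced transcription factor, fell by 3.55. The 18 genes of the endoplasmic reticulum folding response gave 1 risen and 12 fallen, including the chaperone Hspa5 (−1.79) and the sensor Atf6 (−1.66), and eIF2 and its kinases and exchange factors gave 2 risen and 11 fallen of 15. Other amino acid enzymes gave 1 risen and 13 fallen of 22, with the polyamine enzyme Odc1 at −2.75, and other amino acid transporters 5 risen and 7 fallen of 19, with Slc43a2 at 1.28 and Slc36a1 at 1.08. In DKI_D1 the counts were 5 risen and 4 fallen for the other targets, 1 and 10 for the folding response, 1 and 9 for eIF2 control, 1 and 10 for other enzymes and 4 and 4 for other transporters. Of all genes, 10.3% were called higher and 15.8% lower in DKI_D1 against WT_D1.

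At day 3, 8 of the 18 folding response genes rose and 0 fell in CD28_KO_D3, 9 rose and 0 fell in DKI_D3, and 8 rose and 1 fell in CD28_AYAA_D3, each against WT_D3. Of all genes, 8.59%, 10.3% and 10.4% were called higher in these groups, and 11.5%, 13.1% and 11.3% lower. The endoplasmic reticulum kinase of eIF2, PERK, encoded by Eif2ak3, fell in all 4 groups with called members, to 40.6 ± 1.52 CPM in CD28_KO_D3 (SD, n = 2), 40.4 ± 2.41 CPM in DKI_D3, 45.1 ± 8.17 CPM in CD28_AYAA_D3 and 58.5 ± 8.68 CPM in Ars2_KO_D3 (SD, n = 3 each), against 97.9 ± 11.8 CPM in WT_D3 (SD, n = 2). The log2 fold changes were −1.27, −1.27, −1.11 and −0.74. Slc7a11, the cystine importer, had 62.9 ± 1.44 CPM in CD28_KO_D3 and 11.4 ± 2.70 CPM in CD28_AYAA_D3, against 0.953 ± 0.904 CPM in WT_D3 (5.80 and 3.34). The glutathione synthesis genes Gclm (1.69) and Gclc (1.29) rose in CD28_KO_D3 and Ddit4, an inhibitor of mTOR signalling, fell by 2.36. In CD28_AYAA_D3 against CD28_Y170F_D3, 13 of 20 synthetases rose and 1 fell, and 11 of 18 folding genes rose and 1 fell. Of all genes, 17.6% were called higher and 19.2% lower in that comparison. In CD28_Y170F against WT 0 genes of any of these 7 lists were called at either day, as was the case in Ars2_KO_D1. Of all genes, 0.0547% were called in CD28_Y170F_D1, 0.0273% in CD28_Y170F_D3 and 0.399% in Ars2_KO_D1. With so few genes called, counts of 0 say little about the lists.

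Some member values carry a counting limit. Exons of 11 members overlap another gene, in each case on the opposite strand, and the strand setting of the deposited counts is not given in the sources used here. For Slc6a9 27.8% of exon bases overlap Ccdc24, and the shares are 15.9% for Bcat2, 10.4% for Psph and 9.0% for Got2. Phgdh and Got2 have annotated pseudogene copies that could share reads with them. Chac1, Nupr1, Pycr1, Slc6a9 and Cth had levels near or below 1 CPM in several groups, so that a difference in them was often not detectable at this depth.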

How the data were processed

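The authors deposited 1 table of expected counts per gene for 48526 genes and 34 libraries. Per the labels' protocols, 100 ng of total RNA went into ribosomal-RNA-depleted, strand-marking libraries sequenced in pairs, and the submitters' processing notes name bcl2fastq 2.20, FastQC, STAR, RSEM and limma, with mm10 and GRCm38 as builds. The deposited expected counts were whole in 83.7–90.8% of values per library and were rounded here. Gene symbols came from GENCODE M21 (48144 genes, 99.2%, matched). The deposited columns of CD28_KO_D3 carry numbers 1 and 2 and the labels 2 and 3, so they were matched to the group only.

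Counts were fitted in R 4.3.3 with edgeR 4.0.16 (filterByExpr, TMM factors, glmQLFit with 1 mean per group over all 34 libraries). Each contrast used glmQLFTest, Benjamini-Hochberg adjustment over 18292 genes and a threshold of 0.05. SE is the absolute log2 fold change over the square root of F. DESeq2 1.42.0 and limma 3.58.1 were alternatives, and code was tested on simulated counts. TMM factors were 0.83–1.11 and the common biological coefficient of variation was 0.16. Library totals were 8.3–47.8 M counts, and counting intervals (95%, exact) cover counting error only. CPM are TMM-scaled. Per the series' text the samples are biological replicates, but no animal is named per library, so p-values measure the spread between these samples. Levels are summarised with pandas 2.3.3 and numpy 2.4.6 in Python 3.11.15, and figures were drawn with matplotlib 3.10.9.

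Members and lists were chosen with earlier results of these data known. Each member with an adjusted p under 0.05 is named in the stimulation, mutant and allele comparisons, up to 6 per genotype in the changes between days, and up to 4 per comparison from other lists. Srrt and Cd28 are named as label checks. Same-numbered libraries of CD28_AYAA_D1 and CD28_Y170F_D1 deviated together over all genes, with correlations of 0.28–0.39 against −0.26 to −0.07 for different numbers. They were treated as paired only in the fit with the replicate block. The main fit, its SE and the leave-out fits had no block.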

Additional observations from a re-analysis of the deposited data

Results flagged for a closer look

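The effect of a genotype differed between day 1 and day 3 in the following members, each by a test of the difference itself (day 3 log2 difference from WT minus that of day 1). Up to 6 members with the smallest p are given per genotype, and genotypes share the WT libraries of each day. In the libraries labelled CD28_KO the differences were 3.40 for Shmt1 (SE 0.47, adjusted p = 7.5e-06), 3.22 for Mthfd1 (SE 0.59, adjusted p = 0.00014), 2.12 for Mthfd2 (SE 0.34, adjusted p = 4e-05), 1.64 for Got1 (SE 0.26, adjusted p = 3.9e-05), 1.47 for Got2 (SE 0.24, adjusted p = 4e-05) and −2.97 for Trib3 (SE 0.47, adjusted p = 3.3e-05). Trib3 was thus above WT at day 1 and below it at day 3 in these libraries. In DKI they were 2.89 for Shmt1, 2.56 for Mthfd1, 1.59 for Slc7a1, 1.56 for Mthfd2, 1.21 for Slc7a6 and 0.95 for Got2, with adjusted p between 2.4e-05 and 0.0027. In CD28_AYAA they were 2.43 for Shmt1, 1.99 for Mthfd1, 1.56 for Slc7a1, 1.22 for Mthfd2, 1.10 for Slc7a6 and 0.87 for Got1, with adjusted p between 0.00023 and 0.0091. In Ars2_KO they were 1.54 for Shmt1 (adjusted p = 0.037) and 0.80 for Slc7a6 (adjusted p = 0.033), and both were lost with the replicate number as a block or with the groups fitted alone. Shmt1, Mthfd1, Slc7a6 and Got1 also fell in WT between the days and Trib3 rose there by 2.67, which enters each difference. In the libraries labelled CD28_KO, Trib3 had 12.8 and 12.6 CPM at day 1 and 9.85 and 10.8 CPM at day 3.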

How the results depend on the processing

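Of 153 pairs of a named member and a comparison, 0 changed direction under any alternative, 69 kept the call under every one and 84 lost it in at least one. The share of all genes called can change between fits too. It is not set beside the counts here or beside most counts from leave-out fits, above and below. These counts are therefore not results about the members alone. The counts that moved by over 1.5 times were as follows, with causes not tested. Fitting only the groups compared gave 5 members called in WT_D3 against WT_D1, 22 in DKI_D1, 6 in CD28_AYAA_D1, 0 in Ars2_KO_D3 and 10 in DKI_D3, each against WT. It gave 17 in CD28_KO_D1, 23 in DKI_D1 and 8 in CD28_Y170F_D3 against WT_D0, 18 in CD28_AYAA_D1 and 5 in CD28_AYAA_D3 against CD28_Y170F, 20 in DKI_D1 and 9 in DKI_D3 against CD28_KO, and 0 for the Ars2_KO change between days. A term for depth gave 4 in DKI_D1, 5 in CD28_AYAA_D1, 1 in Ars2_KO_D3 and 3 in CD28_AYAA_D3 against WT, and 3 in CD28_AYAA_D1 against CD28_Y170F_D1. No filter on low counts gave 8 in CD28_AYAA_D1, 5 in Ars2_KO_D3, 8 in CD28_KO_D3 and 8 in CD28_AYAA_D3 against WT, 9 in CD28_AYAA_D1 against CD28_Y170F_D1, 10 in DKI_D1 against CD28_KO_D1 and 4 for the Ars2_KO change. Protein-coding genes alone gave 5 in CD28_AYAA_D1 against WT_D1 and 3 against CD28_Y170F_D1. DESeq2 gave 5 and 5 there, and limma-voom 2 in the comparison of the alleles. With the replicate number as a block, 26 members were called in CD28_AYAA_D1 against CD28_Y170F_D1, where same-numbered libraries deviated together. No shared animal is named for these groups or for any others. Sex matched by number across the days in Ars2_KO, CD28_AYAA and CD28_Y170F, and WT number 4 was under 12 M at both days. Same-numbered libraries correlated at 0.0–0.16 (day 3 alleles), 0.01–0.03 (DKI days) and 0.29 (WT days). The values were 0.04–0.31, 0.1–0.24 and 0.09–0.24 for the CD28_AYAA, Ars2_KO and CD28_Y170F days, against −0.26 to 0.08, −0.23 to 0.02 and −0.19 to 0.09 for different numbers. Pairing is possible in these groups but not stated. The block gave 3 in CD28_AYAA_D3 against CD28_Y170F_D3, 14 in WT_D3 against WT_D1, 20 for the CD28_AYAA change and 0 for the Ars2_KO change.

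Leaving out 1 library at a time gave ranges of 13–22 for WT_D3 against WT_D0 (13 without WT_D3 number 1), 3–8 for WT_D3 against WT_D1, 15–21 for CD28_KO_D1, 2–12 for DKI_D1 and 0–4 for CD28_AYAA_D1 against WT_D1 (15, 2 and 0 without WT_D1 number 1). Against WT_D3 they were 0–6 for Ars2_KO_D3, 1–5 for CD28_KO_D3, 2–6 for CD28_AYAA_D3 and 0–14 for CD28_Y170F_D3, with 0, 1 and 2 in the first 3 without WT_D3 number 4. Against WT_D0 they were 6–8 for CD28_KO_D1 and 9–13 for DKI_D1. Between alleles the count was 0 each time for CD28_AYAA_D1 against CD28_Y170F_D1, 6–21 at day 3 and 0–5 for DKI_D1 against CD28_KO_D1. For changes between days they were 0–3 in Ars2_KO, 8–17 in DKI and 3–17 in CD28_AYAA. A lone remaining WT library is assumed to vary like the other groups. Depth limits Chac1, Nupr1, Pycr1, Slc6a9 and Cth, and with 2 WT libraries per group small changes can go undetected.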
